A study of Mus musculus with 10 samples.

Results

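Caudal over rostral ratios were followed in the mouse neocortex at E11.5 for 6 genes of surface ectoderm and simple epithelium: the keratins Krt18, Krt8, Krt5 and Krt14, the transcription factor Trp63 and the adhesion molecule Epcam. They were taken as every probe whose only gene symbol in the platform annotation is one of these 6 names. Of the 6 genes, 5 had a probe, 1 each, and no probe was named Krt14, which is therefore not analysed here. The probes were CG_Mm_3004053_1 for Krt18, CG_Mm_3004065_1 for Krt8, CG_Mm_EXT_3113667_1 for Krt5, CG_Mm_3006663_1 for Trp63 and CG_Mm_3003658_1 for Epcam. RefSeq (GRCm38.p6) places Krt8 at chr15:101996711-102004342, Krt18 at chr15:102028216-102032026, Krt5 at chr15:101707069-101712905, Trp63 at chr16:25683763-25892088 and Epcam at chr17:87635979-87651127. The part of the gene that a probe covers was not analysed here. The array held a single-symbol probe for 15063 genes. Krt18, Krt8, Krt5 and Trp63 had enough measured ratios to be tested, among 9214 genes that did, and Epcam did not.

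The study compared the caudal with the rostral end of the neocortex, both taken from the same pool of embryos and hybridised together with Cy3 and Cy5 on a 2-colour array. The tissue came from MF1, an outbred stock, in 3 pools on 6 arrays, and from C57, an inbred strain, in 2 pools on 4 arrays. The labels name no allele or treatment. A pool held 3 embryos, its RNA was amplified as cDNA before labelling, and 2 arrays in opposite dye order were made from it. Using both strains was meant to control for strain-dependent expression. Nothing says that the pools of a strain came from separate litters, so p-values measure the spread between these pools only.

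Every value is the log2 of caudal divided by rostral RNA, and negative numbers mean more RNA at the rostral end. The direction is likely rather than settled: the deposited numbers were read as Cy5 divided by Cy3, which no source states, and all signs would flip at once if they were Cy3 divided by Cy5. A probe's pool value is the mean of its 2 arrays. The ratios carry no level: whether a keratin was abundant or scarce in either sample cannot be read from them. In such bulk tissue, fewer cells of a type and less RNA per cell cannot be told apart.

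The pools were unlike. The MF1 arrays gave a ratio for 13723 to 18288 of 21766 probes and the C57 arrays for 20191 to 20870, and the median ratio of the tested probes lay between -0.18 and 0.36 in single pools. The SD across tested probes was 0.553, 0.77 and 0.667 in MF1 pools 1, 2 and 3, against 0.455 and 0.298 in C57 pools 1 and 2. Dye order moved many probes: once turned to caudal over rostral, the 2 arrays of a pool had correlations across probes from -0.25 to 0.03, where probes are not independent replicates. The typical absolute difference between the dye orders of a probe was 0.40 to 0.68. The values of single arrays are therefore given beside the pool means.

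Keratins form intermediate filaments from obligate pairs of a type I and a type II protein. Krt18 and Krt8 are the type I and type II partners of simple epithelia and are the first keratins of the embryo, while Krt14 and Krt5 are the partners of the basal layer of stratified epithelia such as epidermis. Trp63 is the transcription factor that commits surface ectoderm to a stratified epithelial fate and is known to activate the basal keratin genes. Epcam is a membrane adhesion glycoprotein of most simple epithelia. The neuroepithelium of the cortical wall builds its filaments mainly from nestin and vimentin, and the surface ectoderm lies outside it, over the head mesenchyme.

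Krt18 had the most negative ratios of these genes, and these were found in MF1. Its pool values were -2.41 in MF1 pool 2 and -2.80 in MF1 pool 3, against -0.56 in C57 pool 1 and -0.01 in C57 pool 2. Both MF1 pools lay below both C57 pools, as every MF1 pool lay below every C57 pool for 15.2% of all tested probes, and all 4 measured pools were negative. Of all tested probes 0.962% were negative in every pool measured, and of those measured in 4 pools 1.67%. MF1 pool 1 has no pool value, since only the array with caudal RNA in Cy5 gave a ratio there, -1.91. On single arrays the ratio was negative on 5 of 5 MF1 arrays and 3 of 4 C57 arrays. All measured MF1 arrays were negative for 2.01% of tested probes.

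The fitted Krt18 ratio was -2.61 ± 0.27 in MF1 (SE, n = 2 pools), so that caudal RNA stood at 0.164 times the rostral RNA, and -0.28 ± 0.27 in C57 (SE, n = 2 pools). In limma neither passed over the 11855 probes tested, with an adjusted p of 0.446 in MF1, an unadjusted p of 0.000301, and an adjusted p of 1 in C57. A negative MF1 ratio with an unadjusted p under 0.05 was found for 2.4% of all tested probes, and among the 4 genes for Krt18 and Trp63. A lower MF1 ratio than that of Krt18 was found for 0.0253% of probes. The mean of both strains, -1.45 ± 0.19, had an unadjusted p of 0.000885 and a limma adjusted p of 0.983. Krt18 and Trp63 were again the 2 of 4 genes with a negative mean and an unadjusted p under 0.05, a class that held 1.11% of all tested probes. The genes were chosen with earlier results of these data known, so such shares are no test of the group. In C57 none of the 4 genes had an unadjusted p under 0.05, against 1.81% of all tested probes in either direction and 0.363% with a negative ratio. A negative ratio as such was common, at 30.6% of all tested probes for the mean of both strains, 44.8% in MF1 and 22.2% in C57.

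The size of the MF1 value rests partly on 1 array: in MF1 pool 3 the array with caudal RNA in Cy5 gave -5.23 and the array with rostral RNA in Cy5 -0.37. A gap as wide as this, 4.86, was exceeded by 3.80% of the probes of that pool. In MF1 pool 2 the same dye orders gave -1.88 and -2.94.

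Krt8, whose protein pairs with that of Krt18, was measured on all 10 arrays. Its pool values were -0.55, -0.01 and -1.62 in MF1 pools 1, 2 and 3, against -0.10 and 0.23 in C57 pools 1 and 2. MF1 pool 3 stood apart from the other 4 pools, and MF1 pool 2 lay between the C57 pools, so the strains overlap. The 2 dye orders differed little in the lowest pool, at -1.49 with caudal RNA in Cy5 and -1.75 with rostral RNA in Cy5.

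The Krt8 ratio was -0.73 ± 0.33 in MF1 (SE, n = 3 pools) and 0.06 ± 0.41 in C57 (SE, n = 2 pools), and neither passed in limma (adjusted p = 0.995 in MF1 and 1 in C57). The MF1 value depended on single pools: it was -0.28 without pool 3, -1.09 without pool 2 and -0.82 without pool 1. With all 3 pools its unadjusted limma p was 0.0738. Krt18 and Krt8 could be set beside each other in 4 pools, and the root mean square difference between their pool values was 1.36. They had the same sign in 3 of these pools. In MF1 pool 2 Krt18 was at -2.41 and Krt8 at -0.01, the widest separation of the partners in any pool.

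Krt18 and Krt8 are neighbouring protein-coding genes on mouse chromosome 15, on opposite strands and transcribed away from each other, with no other protein-coding gene between them in RefSeq. Their promoters, 250 bases before to 50 after each gene's start in RefSeq (GRCm38.p6), are given because the ratios of these partner genes were unlike. Capitals mark matches, on either strand, to TATAAA as the TATA box, to GGGCGG as the GC box, to TGANTCA as the AP-1 motif and to GCCNNNGGC as the AP-2 motif.
Krt18, chr15:102027966-102028265, plus strand: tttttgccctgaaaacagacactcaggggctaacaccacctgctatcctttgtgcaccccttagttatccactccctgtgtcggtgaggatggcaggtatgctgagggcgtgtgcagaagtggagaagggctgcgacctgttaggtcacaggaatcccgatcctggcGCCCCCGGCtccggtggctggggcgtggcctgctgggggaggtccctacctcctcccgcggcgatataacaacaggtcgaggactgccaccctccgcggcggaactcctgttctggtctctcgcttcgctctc
Krt8, chr15:102004293-102004592, minus strand: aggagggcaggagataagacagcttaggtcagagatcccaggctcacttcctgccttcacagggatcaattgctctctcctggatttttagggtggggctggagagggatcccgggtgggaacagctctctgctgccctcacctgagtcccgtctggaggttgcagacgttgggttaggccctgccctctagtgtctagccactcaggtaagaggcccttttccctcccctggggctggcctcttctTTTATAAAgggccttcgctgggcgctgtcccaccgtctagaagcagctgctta
The Krt18 window held 1 match to GCCNNNGGC and none to the other motifs. The Krt8 window held 2 overlapping matches to TATAAA, 1 on each strand, and none to the others. They begin at -3 and -1 from the gene's start in RefSeq, so that they lie across this start and not well before it. Of all 32851 promoter windows in the table, 16.6% held GCCNNNGGC, 13.6% TATAAA, 35.7% GGGCGG and 7.81% TGANTCA. A match describes letters in a window and not a site in use.

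**Figure D1:**
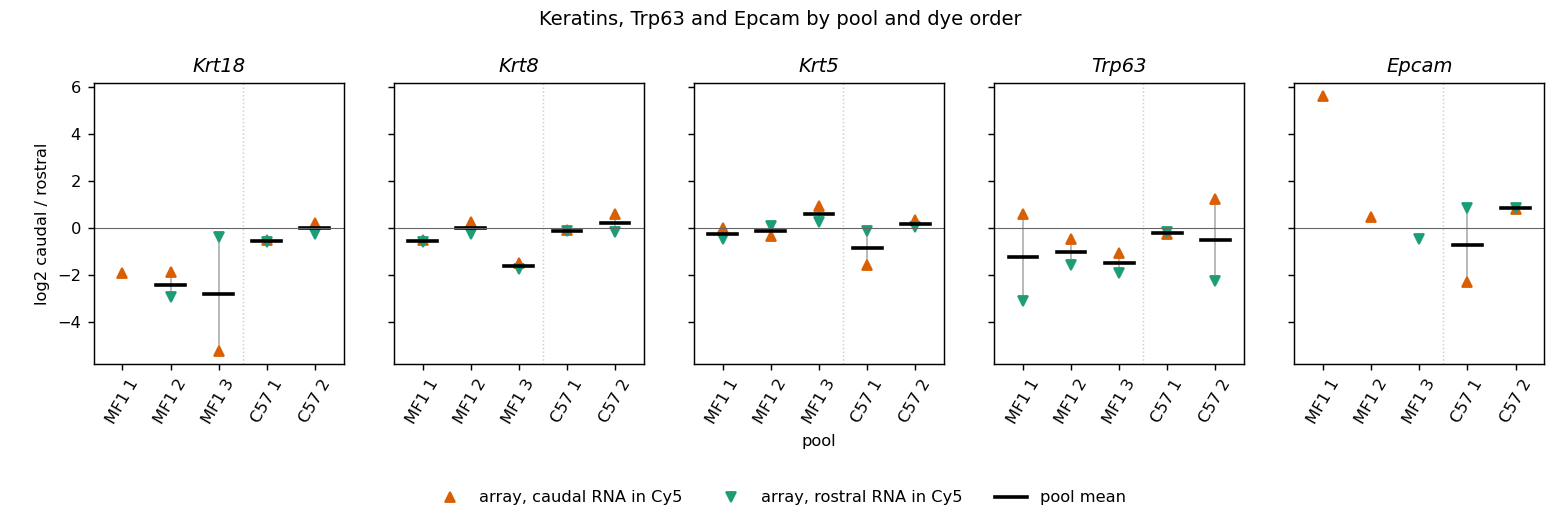
Log2 ratio of caudal over rostral RNA of Krt18, Krt8, Krt5, Trp63 and Epcam in 3 MF1 and 2 C57 pools. Triangles are single arrays, pointing up with caudal RNA in Cy5 and down with rostral RNA in Cy5, and black bars are pool means, drawn only where both arrays gave a ratio. Trp63 has all 5 bars below 0, while its triangles stand far apart in MF1 pool 1 and C57 pool 2.

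Krt5, the type II keratin of basal cells, showed no common side. Its pool values were -0.25, -0.12 and 0.60 in MF1 pools 1, 2 and 3, against -0.86 and 0.19 in C57 pools 1 and 2. Each strain held both signs, and the strains overlapped. The ratio was 0.08 ± 0.29 in MF1 (SE, n = 3 pools) and -0.33 ± 0.35 in C57 (SE, n = 2 pools), with limma adjusted p of 0.996 and 1. MF1 pool 3, where Krt18 and Krt8 had their lowest values, was the pool with the highest Krt5 value. Without C57 pool 1 the C57 value turned to 0.19, and without MF1 pool 3 the MF1 value turned to -0.18.

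Trp63 had pool values of 1 sign in both strains. It stood at -1.24, -1.02 and -1.48 in MF1 pools 1, 2 and 3, against -0.20 and -0.50 in C57 pools 1 and 2. Every pool was negative, as were 0.728% of the tested probes measured in all 5 pools. The MF1 pools all lay below the C57 pools, an arrangement that 15.2% of all tested probes shared. Their mean was -1.25 ± 0.23 in MF1 (SD, n = 3) and -0.35 ± 0.21 in C57 (SD, n = 2).

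In the fit, the Trp63 ratio was -1.25 ± 0.19 in MF1 (SE, n = 3 pools), caudal RNA at 0.421 times the rostral RNA, and -0.35 ± 0.23 in C57 (SE, n = 2 pools). The limma adjusted p was 0.712 in MF1, where the unadjusted p was 0.00075, and 1 in C57. For the mean of both strains, -0.80 ± 0.15, the unadjusted p was 0.00213 and the adjusted p 0.983. No tested probe had a limma adjusted p under 0.05 in any of the 4 comparisons, so 0% of all probes were called.

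The even pool means of Trp63 hid wide gaps between dye orders. With caudal RNA in Cy5 its arrays gave 0.61, -0.46 and -1.04 in MF1 pools 1, 2 and 3 and -0.23 and 1.25 in C57 pools 1 and 2. With rostral RNA in Cy5 they gave -3.10, -1.59 and -1.92 in the MF1 pools and -0.18 and -2.25 in the C57 pools. The mean over pools was thus 0.03 in the first order and -1.81 in the second, both over 5 arrays, and the negative pool means came mostly from the arrays with rostral RNA in Cy5. In C57 pool 2 the gap of 3.50 was exceeded by 2.01% of the probes of that pool, and in MF1 pool 1 the gap of 3.72 by 5.52%.

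With the 10 arrays fitted singly, with a dye term and the pool as a block, the dye term of Trp63 was 1.83 ± 0.52 (SE, unadjusted p = 0.00633, limma adjusted p = 0.124), a positive value meaning a higher ratio with caudal RNA in Cy5. A dye term with an unadjusted p under 0.05 was found for 27.5% of the tested probes, a positive one for 24.9%, and one with an adjusted p under 0.05 for 0.0506%. In that fit the MF1 ratio of Trp63 was -1.25 ± 0.47 with an unadjusted limma p of 0.0269, against 0.00075 from pool means. That of Krt18 was -2.35 ± 0.76 with an unadjusted p of 0.015, against 0.000301 from pool means. That of Krt8 was -0.73 ± 0.26 with an unadjusted limma p of 0.0224 and an adjusted p of 0.946, against an unadjusted 0.0738 from pool means. For the mean of both strains the unadjusted limma p of the dye-term fit was 0.0525 for Krt18, 0.061 for Trp63 and 0.146 for Krt8. The dye terms were -0.68 ± 0.85 for Krt18, 0.33 ± 0.29 for Krt8 and -0.08 ± 0.35 for Krt5 (SE, limma unadjusted p = 0.443, 0.288 and 0.824). Krt18 was negative on average in both orders, at -1.86 over 5 arrays and -1.04 over 4, and so was Krt8, at -0.25 and -0.57 over 5 arrays each.

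**Figure D2:**
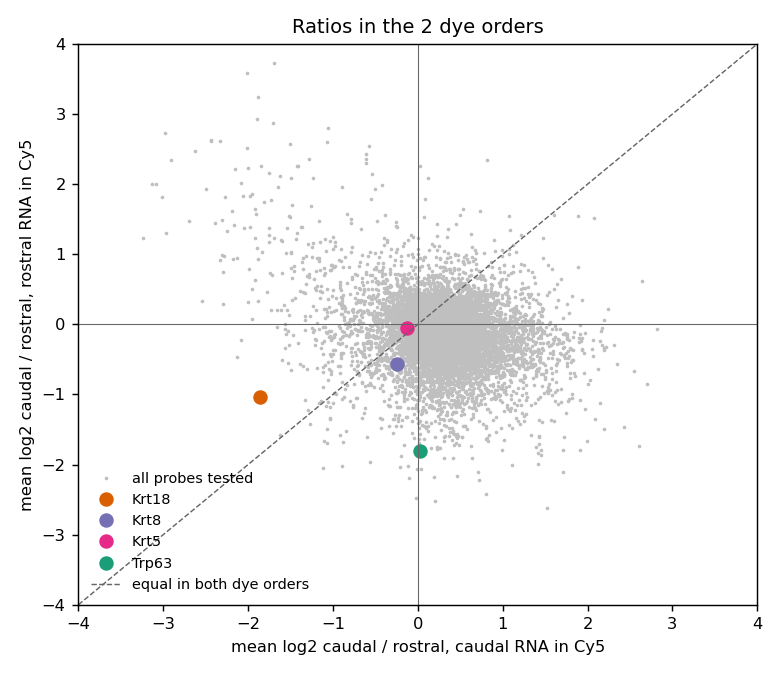
Mean log2 ratio of caudal over rostral RNA in each dye order, caudal RNA in Cy5 on the horizontal and rostral RNA in Cy5 on the vertical axis, for the 11855 tested probes (grey) and 4 coloured genes. Equal ratios lie on the dashed line. Krt18 lies low on both axes, while Trp63 lies at 0.03 on the horizontal and -1.81 on the vertical axis.

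Epcam gave a ratio on 3 of 6 MF1 arrays and on 4 of 4 C57 arrays, and no MF1 pool had both dye orders. Its single MF1 arrays gave 5.61 in pool 1 and 0.49 in pool 2, both with caudal RNA in Cy5, and -0.48 in pool 3 with rostral RNA in Cy5. In C57 pool 2 the arrays gave 0.83 and 0.84, and in C57 pool 1 they gave -2.30 with caudal RNA in Cy5 and 0.87 with rostral RNA in Cy5. The C57 pool means were therefore -0.72 and 0.84. Its values have both signs within each strain, and no test was made.

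Whether the regional ratio differs between the strains was tested for each of the 4 genes. Krt18 had a difference of -2.32 ± 0.39 for MF1 minus C57 (SE, 4 pools) and Trp63 one of -0.90 ± 0.30 (SE, 5 pools). In limma their unadjusted p values were 0.00228 and 0.0265, and the adjusted p was 0.999 for both. Of the alternative settings, the unadjusted p stayed under 0.05 in 10 of 12 for Krt18 and in 5 of 13 for Trp63. The unadjusted limma p was 0.113 for Krt18 and 0.262 for Trp63 with a dye term, and 0.15 and 0.289 with a trended and robust variance. Several of the other settings, such as leaving out MF1 pool 1, left the Krt18 difference at -2.32, so the settings are not separate evidence. An unadjusted p under 0.05 was found for 1.88% of all tested probes, 1.33% with a negative difference. The differences of Krt8, -0.79 ± 0.52, and Krt5, 0.41 ± 0.46, had unadjusted p values of 0.187 and 0.404. Without MF1 pool 3 the Krt8 difference was -0.34, as it was with the pool number as a block, and without C57 pool 1 that of Krt5 turned to -0.11.

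An exact permutation of the strain labels over pools, two-sided, gave p = 0.333 for Krt18, p = 0.2 for Trp63, p = 0.4 for Krt8 and p = 0.6 for Krt5. The smallest p that this test allows is 0.333 with 2 pools against 2 and 0.2 with 3 against 2, so no strain difference could reach 0.05 by it. Krt18 and Trp63 had all MF1 pools below all C57 pools, the arrangement of 15.2% of all tested probes, and the pools of Krt8 and Krt5 overlapped between strains.

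**Figure D3:**
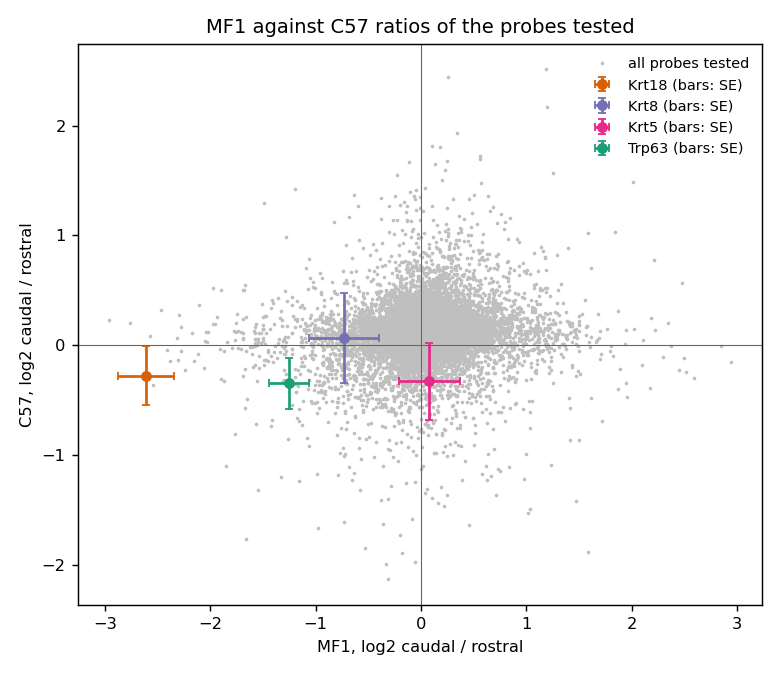
Fitted log2 ratio of caudal over rostral RNA in MF1 (horizontal, 3 pools, 2 for Krt18) against C57 (vertical, 2 pools) for the 11855 tested probes in grey and for Krt18, Krt8, Krt5 and Trp63 with SE bars. Krt18 at -2.61 and Trp63 at -1.25 lie left of nearly all grey points, and in C57 all 4 genes lie between -0.35 and 0.06.

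Other genes of surface and simple epithelium had ratios on both sides of 0. The array held probes for 30 of the 35 listed genes and 16 of them were tested, of which 9 had a negative and 7 a positive mean ratio. Of all tested probes, 30.6% had a negative mean ratio. Their median was -0.02 for the mean of both strains, -0.12 in MF1 and 0.12 in C57, beside 0.09, 0.03 and 0.13 over all tested probes. None had an unadjusted limma p under 0.05 in the mean or the MF1 comparison, where 3.1% and 3.96% of all tested probes did, and none had an adjusted p under 0.05.

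Among these genes, Grhl2, a transcription factor of surface ectoderm known for neural tube closure, had 0.02 ± 0.16 and Tfap2c, an AP-2 factor of early ectoderm, -0.06 ± 0.20 (SE, n = 5 pools each). Ovol2, a repressor that maintains epithelial identity, stood at -0.03 ± 0.14, and Krt7, a further simple-epithelial type II keratin, at 0.13 ± 0.25. The smallest p of the list was that of Krt6a, a keratin of stressed and appendage epithelia, at 0.76 ± 0.46 (limma unadjusted p = 0.155, adjusted p = 0.983), with -0.49, 2.71 and 1.73 in the MF1 pools and 0.06 and 0.35 in the C57 pools. Krt19, another type I keratin of simple epithelia, had a mean of -0.05 ± 0.34 from 4 pools, with 0.91 and -0.86 in MF1 pools 1 and 2. Apart from Krt6a, these genes, and in the next paragraphs Cdh1, Tfap2a, Perp, Itgb4, Dsp, Lor and Ivl, were chosen for their textbook role after their values were seen.

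Cdh1, the E-cadherin of epithelial junctions, could not be tested, as 1 MF1 array gave a ratio. Its C57 pool values were -2.43 and 0.85, and Tfap2a, another AP-2 factor, had -1.28 and 0.54 from the same pools. In C57 pool 1 most untested genes of this list were negative, down to -3.75 for Ovol1. Those above 0 there were Esrp2 at 0.17, Ehf at 1.43 and Ap1m2 at 2.78. In C57 pool 2 all untested genes of the list with a pool value were positive, from 0.17 for Ovol1 to 0.91 for Ehf. The median of all tested probes was -0.10 in C57 pool 1 and 0.36 in C57 pool 2. Trp63 was lower in C57 pool 2, at -0.50, than in C57 pool 1, at -0.20.

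Of genes for desmosomes and hemidesmosomes, which anchor keratin filaments to the cell surface, 8 of 20 were tested by 9 probes, 4 negative and 5 positive, with a median of 0.10. Over all tested probes 30.6% had a negative mean ratio, and the median was 0.09. Itga6, an integrin of hemidesmosomes, had the smallest p, at 0.39 ± 0.26 (limma unadjusted p = 0.179). Perp, a desmosomal Trp63 target, stood at -0.03 ± 0.14 and the hemidesmosomal integrin Itgb4 at -0.09 ± 0.21. Dsp, which links keratins to desmosomes, was not tested. Its measured pools were MF1 pool 2 at -1.58, C57 pool 1 at -3.32 and C57 pool 2 at -0.23. In C57 pool 1 most untested probes of this list were negative, with Dsp the lowest. Those above 0 there were Lamb3 at 0.02 and a Dst probe at 0.47. In C57 pool 2 all untested probes of the list with a pool value except that of Dsp were positive. The median of all tested probes was -0.10 in the first of these pools and 0.36 in the second.

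Genes of stratification and targets of Trp63 had 14 of 22 tested, 9 negative and 5 positive, with a median of -0.02 for the mean of both strains and of -0.08 in MF1. Perp and Itgb4, both negative, are counted here and in the desmosome list, so the tallies are not separate. Over all tested probes these medians were 0.09 and 0.03, and 30.6% had a negative mean ratio. Fgfr2, a growth factor receptor with an epithelial isoform, was positive in 4 of 5 pools, with 0.76 ± 0.30 in MF1 and 0.24 ± 0.36 in C57 (limma unadjusted p = 0.0445 in MF1, adjusted p = 0.995). Lama5, a laminin chain of basement membranes, was the lowest of the list in MF1, at -1.29 ± 0.63. Its pool values were 0.63, -1.94 and -2.56 in MF1 pools 1, 2 and 3 and -0.44 and 0.58 in C57 pools 1 and 2. Of the cornified layer, whose proteins are known from epidermis, Lor stood at -0.01 ± 0.24 and Ivl at 0.05 ± 0.20.

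**Figure D4:**
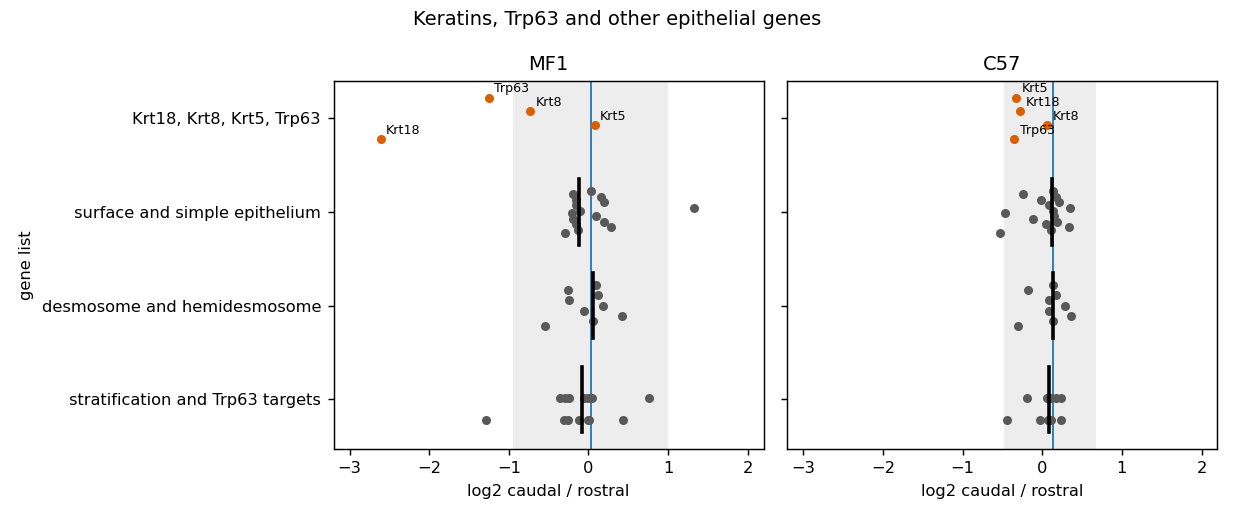
Fitted log2 ratios of caudal over rostral RNA in MF1 (left) and C57 (right) for Krt18, Krt8, Krt5 and Trp63 (orange) and the tested probes of 3 lists of epithelial genes (dark dots, with black bars at list medians). The blue line is the median and the grey band the central 95% of all tested probes, from -0.93 to 0.99 in MF1 and from -0.47 to 0.66 in C57. Krt18 and Trp63 lie outside the MF1 band, and of the listed probes Lama5 and Krt6a do in MF1 and Krt15 in C57.

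The remaining keratins on the array, 32 genes that include hair and epidermal forms, were tested for 18, and 13 of these were positive and 5 negative in the mean of both strains. They include keratins already counted in the lists above, such as Krt7, Krt19 and Krt6a. Their median was 0.09, equal to that of all tested probes, and none had an unadjusted limma p under 0.05 in the mean or the MF1 comparison. The other intermediate filament genes, from a list that holds nestin and vimentin, had 7 positive and 1 negative of 8 tested in that mean and a median of 0.06. In MF1, 5 of them were negative and 3 positive, with a median of -0.12, beside 0.03 over all tested probes. Their medians were -0.43 and -0.25 in MF1 pools 2 and 3. The one negative in the mean of both strains was Lmna, a nuclear lamin, at -0.74 ± 0.20 from 4 pools (limma unadjusted p = 0.015, adjusted p = 0.983), with -0.36 and -1.07 in MF1 pools 1 and 2 and -0.70 and -0.82 in C57.

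Markers of neighbouring tissues were read beside these values. Head mesenchyme and meninges, the tissue beneath the surface ectoderm, had 4 negative and 5 positive of 9 tested probes and a median of 0.01, with pool medians from -0.36 to 0.42. In MF1, 6 of the 9 were negative, 1 of them with an unadjusted limma p under 0.05, and 3 were positive. Of all tested probes, 44.8% were negative in MF1, and 2.4% were negative with an unadjusted limma p under 0.05. Its marker of smallest p in the mean of both strains was Lum, a matrix proteoglycan, at 0.77 ± 0.36. The olfactory and lens placode list, other derivatives of the head ectoderm, had 2 negative and 4 positive of 6 tested and a median of 0.03, with Foxe3, a lens transcription factor, at 0.69 ± 0.23 from 4 pools. The neuroepithelium had a median of 0.10 with Lhx2, a cortical selector gene, at 0.32 ± 0.15, blood 0.41 with Hbb-y at 0.52 ± 0.15, and choroid plexus and hem 0.36 with Ttr at 1.68 ± 0.19 (limma unadjusted p = 0.0306 for Foxe3, 0.0793 for Lum, 0.0759 for Lhx2, 0.0144 for Hbb-y and 0.000134 for Ttr). Endothelium had a median of 0.01, with 5 of 11 tested probes negative in the mean of both strains and 6 in MF1. Its Sox18, an endothelial transcription factor, had 2.34 and 2.25 in MF1 pools 2 and 3, against -0.61 and 0.40 in C57 pools 1 and 2. The fitted Sox18 ratio was 2.30 ± 0.32 in MF1, -0.11 ± 0.32 in C57 and 1.10 ± 0.23 in the mean of both, and MF1 minus C57 was 2.40 ± 0.46 (limma unadjusted p = 0.00577 for the mean and 0.00397 for the difference, adjusted p = 0.983 and 0.999).

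In the mean of both strains, the medians were 0.01 for head mesenchyme, 0.01 for endothelium, 0.03 for placodes and -0.02 for surface and simple epithelium. The median of all tested probes was 0.09 in that mean, 0.03 in MF1, and 0.13 and 0.15 in MF1 pools 2 and 3. In MF1, the medians were -0.08 for head mesenchyme, 0.01 for placodes and -0.12 for surface and simple epithelium, from fits to all 3 MF1 pools. In MF1 pools 2 and 3, the pools behind the Krt18 value of -2.61, the medians were 0.42 and 0.01 for head mesenchyme, -0.29 and 0.28 for placodes and -0.20 and 0.16 for surface and simple epithelium. How far any admixture of these tissues contributed to the Krt18 and Trp63 ratios was not tested.

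The probes whose pool values lay nearest to each gene were found by the root mean square difference over the pools that the gene had, as a description. For Krt18, over 4 pools and among 7904 named probes, they were Dlx1, a homeobox gene of the ventral telencephalon, at 0.40, Lama5 at 0.401 and Akp3, an alkaline phosphatase, at 0.464. Dlx1 had -2.18 and -2.05 in MF1 pools 2 and 3 and -0.47 and -0.09 in C57 pools 1 and 2. It stood at -0.84 in MF1 pool 1, where Krt18 had no pool value and Lama5 had 0.63. For Trp63, over 5 pools and 7530 probes, the nearest were Mzb1 at 0.377, Pantr1, a non-coding RNA, at 0.394 and Nipa1 at 0.437.

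For Krt8 they were Man2a2, a Golgi mannosidase, at 0.143, Zfp142 at 0.167 and Rbms2 at 0.256, each with its lowest value in MF1 pool 3, at -1.52, -1.70 and -1.59. For Krt5 they were Kif6, a kinesin, at 0.047, Emcn, an endothelial sialomucin, at 0.135 and Crot, a peroxisomal acyltransferase, at 0.14. No gene of the group was among the 3 nearest of another one. Among themselves, Krt8 and Trp63 lay closest, at 0.644 over 5 pools, and Krt18 and Krt5 farthest apart, at 2.06 over 4 pools.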

How the data were processed

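Rostral and caudal RNA of 5 pools was measured on 10 two-colour arrays, per the labels. The authors deposited, for each spot, a log2 ratio between the channels; the log base was inferred from the values. For scanner, background correction and normalization: not given in the sources used here. Medians of single arrays differ from 0, and no centring was added. Values at a shared ceiling of 16.61 (436 values) and nulls were treated as missing, and 232 control spots were left out, leaving 21766 probes. Cy5 was taken as the numerator, which no source states. Arrays were turned to caudal over rostral by their dye labels, and the 2 arrays of a pool averaged.

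Testing required both dye orders in 2 or more pools per strain. The test was limma 3.58.1 under R 4.3.3 on pool values, with lmFit and eBayes and a coefficient for each strain, two-sided, with Benjamini-Hochberg adjustment over 11855 probes and a threshold of 0.05. The procedure was tested on simulated data. Of 16632 single-symbol probes, 15952 matched RefSeq genes of GRCm38.p6 by identifier, and none changed name. The number of arrays limits the precision.

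The genes and lists were chosen with earlier results of these data known. Named beside them are the probe of smallest p of each list, in the epithelial lists those with an unadjusted p under 0.05, and the 3 probes of nearest pool values. Alternatives covered centring, ceiling values, the probe filter, incomplete pools, averaging of probes, a dye term, the variance model, leaving out each pool and a replicate block. Plots used matplotlib 3.10.9 and Python 3.11.15.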

Additional observations from a re-analysis of the deposited data

How the results depend on the processing

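The counts of probes past an adjusted p of 0.05 were 0 in all 4 comparisons and stayed at 0 under the alternatives, except that 1 probe passed for the mean of both strains in the fit of single arrays with a dye term, and that leaving out single pools gave 0 to 37 in MF1: 37 without MF1 pool 1 and 24 without MF1 pool 3. Krt18 was among the 37, at -2.61 with an adjusted p of 0.0454, although it has no value in that pool and its own values were the same; its adjusted p in MF1 otherwise ran from 0.0957 upward. The ratios of Krt18 and Trp63 kept their sign in every comparison and alternative run. Leaving out pools could not turn these signs: all measured pool values were negative, and each MF1 pool lay below each C57 pool. Krt18 in MF1 ranged from -2.80 to -2.35 and Trp63 from -1.36 to -1.13. Their unadjusted p for the mean of both strains reached 0.086 and 0.0799 with a trended and robust variance, and those for MF1 minus C57 0.15 and 0.289. The Trp63 strain difference had an unadjusted p of 0.0679 with centred arrays, 0.0648 with the replicate block and 0.0381 to 0.119 when single pools were left out. Krt18 has no value among probes measured in all 5 pools. Krt5 changed side: for the mean of both strains it ranged from -0.39 to 0.13 when pools were left out, in MF1 from -0.18 to 0.24, in C57 from -0.86 to 0.19 and for MF1 minus C57 from -0.11 to 0.93. Krt8 in C57 turned to -0.03 with centred arrays and ranged from -0.10 to 0.23 when pools were left out. Why these turned was not tested. With the pool number as a replicate block, 0 probes passed in each comparison, Krt5 in MF1 was -0.02 and Krt8 in C57 -0.21. Pools of the same number come from different strains, and their deviations had correlations of 0.127 and -0.0236, and the samples share only a number. Centring moved the split of unadjusted calls for the mean of both strains to 270 positive and 272 negative probes, against 235 and 132, and raised their number to 542, against 367; with the replicate block it was 734. Single-array noise and missing MF1 ratios limit all of these values.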
